A study of Gallus gallus with 34 samples.

Results

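The 8 chicks that wore a lens for 2 days, 4 with a negative and 4 with a positive lens, were set together against the 3 age-matched No Lens chicks, to describe the expression difference that both lens signs share. These 11 of the 34 chicks of the series were taken by their labels, and all of them had counts. All were male Leghorn/New Hampshire chicks of post-hatch day 7, fitted 2 days before with a −10 D or a +10 D polymethyl methacrylate lens over the right eye, or left without one. They shared the light cycle. The study raised its chicks in groups and assigned the lens condition at random. It does not say how the rearing groups were spread over the lens conditions. No plano lens or empty mount is described for the No Lens chicks. By the study's account, the sequenced samples were taken between 1 and 3 p.m., with their order balanced over the lens groups. The chicks sequenced had been picked by the study from a larger set for strong and cohesive changes of refraction and eye length, so they are not a random sample of lens-wearing chicks. One eye of each chick gave 1 library from retina, retinal pigment epithelium (RPE) and choroid removed as 1 tissue. In such bulk tissue, fewer cells of a type and less RNA per cell cannot be told apart.

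A negative lens shifts the image behind the retina and the eye grows longer, and a positive lens shifts it in front and growth slows. Both kinds share a blurred image, an object in front of the eye and its mount. The retina also keeps its own circadian clock, in which the transcription factor ARNTL (BMAL1) with CLOCK or NPAS2 activates period and cryptochrome genes, whose products repress it in turn, and NFIL3 represses a set of clock outputs. Photoreceptors express many genes of light detection under this rhythm: light activates an opsin, transducin and the phosphodiesterase PDE6, the fall of cyclic GMP closes cyclic nucleotide-gated channels, and kinases, guanylate cyclase activating proteins and the RGS9 complex restore the dark state.

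Counts per chick ranged from 3078121 to 9901800 in the No Lens group, from 4043788 to 11216801 in the negative lens group and from 3383933 to 6492719 in the positive lens group. Levels are given in CPM (counts scaled to library size) normalized by TMM over all 34 chicks, and log2 fold changes (lens minus No Lens, both signs weighted equally) with their SE from the quasi-likelihood fit of edgeR to the 11 chicks. In 11410 genes the median SE was 0.15, 0.33 in the genes of lowest expression and 0.10 in those of highest expression. Chicks 13 (positive), 48 (negative) and 82 (No Lens), 1 of each group, stood apart on the first principal component, which held 59.1% of the variance, and the calls and the main gene lists are also given without them. Of the markers listed, 11 of 13 for photoreceptors, 13 of 13 for RPE and 12 of 14 for choroidal endothelium were found by symbol. Of 37 phototransduction symbols listed, 26 were found, without the cone opsins OPN1LW, OPN1SW, OPN1MSW and RH2. PDE6H averaged 2986 CPM in the No Lens chicks, and the summed level of 13 RPE markers lay between 2311 and 3219 CPM over the 11 chicks.

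No gene passed the test after adjustment. Of 11410 genes, 0 (0%) reached an adjusted p-value below 0.05 by the quasi-likelihood test, and the smallest adjusted p was 0.0760, shared by NFIL3 and ARNTL. At an unadjusted p below 0.05 there were 442 genes (3.87%), 165 higher and 277 lower with a lens, a share below the one the threshold itself sets. The 8 lens chicks all lay above the 3 No Lens chicks in 51 genes (0.447%) and all below in 70 (0.613%). DESeq2 called 19 of the 7490 genes it adjusted (0.254%), 16 higher and 3 lower, and with the beta prior, a shrinkage of fold changes, 19 of 7237 (0.263%), again 16 higher and 3 lower. The likelihood ratio test of edgeR called 12, and limma-voom called 5. The count of DESeq2 with the beta prior was 5 without No Lens chick 85, 11 without No Lens chick 82 and 29 without negative lens chick 49, and without chicks 13, 48 and 82 together it was 28, 12 of them among the 25 genes below, while the quasi-likelihood test gave 0 calls and 863 genes at the unadjusted p. With each chick left out in turn under DESeq2 with the beta prior, NFIL3, ARNTL, OTUD1 and BLIMP-1 were called in all 11 fits. Without chicks 13, 48 and 82 it called these 4, PDE6C, PER3, CACNA2D4, LONRF3, PPEF2, LAMP3, CCBE1 and CNGA3 of the 25, and no longer called ENSGALG00000002638, C2orf44, ETNK1, ABCG1, ESRRB, CITED3 or LBH. By the quasi-likelihood test, with each chick left out in turn, the adjusted p of NFIL3 ran from 0.0381 to 0.629. That of ARNTL ran from 0.0696 to 0.924, of OTUD1 from 0.150 to 0.998 and of BLIMP-1 from 0.149 to 0.9999. Whether the day 2 lens chicks hold a differentially-expressed gene at all therefore depends on the test, and the genes below are the 25 with the smallest unadjusted p, 18 of which DESeq2 called. Their values are descriptions unless a tool is named as having called them.

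Among these 25 genes, 15 were higher and 10 lower with a lens. The sizes ran from 0.24 to 1.08 on the log2 scale, and in 20 of the 25 the lens chicks and the No Lens chicks did not overlap. Over all 11410 genes the lens chicks lay wholly above in 51 (0.447%) and wholly below in 70 (0.613%). The 25 were ranked on these same chicks, which favours such separation. The first in order were the clock genes NFIL3 and ARNTL, the deubiquitinase gene OTUD1 and BLIMP-1 (PRDM1), a transcriptional repressor that in the mouse retina favours photoreceptors over bipolar cells. PER3, the cone phosphodiesterase PDE6C and the cone channel subunit CNGA3 were among the lower.

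NFIL3 stood at 92.6, 99.5 and 104.4 CPM in the No Lens chicks, at 154, 139, 188 and 175 CPM in the negative lens chicks and at 184, 163, 161 and 177 CPM in the positive lens chicks. Every lens chick was above every No Lens chick, and the ranges of the lens groups overlapped. The difference was 0.76 ± 0.10 (SE, log2), a ratio of 1.69, and NFIL3 rose by DESeq2 (adjusted p = 2.2e-08), the likelihood ratio test (adjusted p = 3.4e-06) and limma-voom (adjusted p = 0.0245).

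ARNTL, the activator of the clock loop, stood at 154, 150 and 148 CPM without a lens, at 212, 200, 225 and 235 CPM with a negative and at 220, 230, 203 and 211 CPM with a positive lens. The 3 No Lens chicks lay within a few CPM of each other, and no lens chick came near them. The difference was 0.52 ± 0.07 (SE, log2), and ARNTL rose by DESeq2 (adjusted p = 4.5e-08), by the likelihood ratio test and by limma-voom.

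PER3, a period gene on the repressing side of the loop, went the other way. It stood at 127, 118 and 101 CPM in the No Lens chicks, at 74.3, 75.5, 66.0 and 68.2 CPM with a negative and at 95.6, 58.4, 68.3 and 49.9 CPM with a positive lens. The groups did not overlap, although positive lens chick 13 lay close to the lowest No Lens chick. The difference was −0.74 ± 0.15 (SE, log2), and PER3 fell by DESeq2 (adjusted p = 0.0124) and by the likelihood ratio test (adjusted p = 0.0105). The quasi-likelihood test did not call PER3 in the 11 chicks, and did so without chick 13 (adjusted p = 0.0410). With each chick left out in turn, its adjusted p by that test ran from 0.0410 to 0.9999.

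Of the 18 members of the circadian clock list that were tested, 0 passed the adjusted test, 5 were higher and 2 lower at the unadjusted p, which 3.87% of all genes passed, and the median log2 fold change was 0.13 against −0.0014 over all genes. That median was 0.0530 without No Lens chick 85, 0.0555 without positive lens chick 15, 0.0654 without negative lens chick 57 and 0.0766 without No Lens chick 82. With No Lens chicks of 1 day, of 3 days and of all days as controls it was 0.23, −0.0062 and 0.08. Without chicks 13, 48 and 82 together the counts were 5 and 3, when 7.48% of all genes were past that p. Besides NFIL3 and ARNTL, the higher members were NPAS2, which can take the place of CLOCK beside ARNTL (0.57 ± 0.19, SE), the ARNTL paralogue ARNTL2 (0.36 ± 0.16), and FBXL21, an F-box protein that acts on cryptochromes in the mouse (0.40 ± 0.14). NPAS2 measured 84.3, 90.0 and 73.1 CPM without a lens, 105, 90.2, 146 and 163 CPM with a negative and 86.8, 131, 124 and 137 CPM with a positive lens. Positive lens chick 13 lay within the No Lens range and negative lens chick 49 just above it. In ARNTL2 and FBXL21 the groups overlapped too. The other lower member was ASMT, the last enzyme of melatonin synthesis, at −0.54 ± 0.20 (SE). Its mean went from 42.7 CPM without to 29.6 CPM with a lens, and its groups overlapped.

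The remaining clock genes were not past the unadjusted p. Of 32 clock symbols listed, 19 were found and 18 tested, without NR1D1, NR1D2, DBP, RORA, CRY4, BHLHE41 and CIART by symbol. PER2 was at −0.30 (unadjusted p = 0.0569) and CRY1 at 0.22 (unadjusted p = 0.0769), while CLOCK itself was at 0.12, CRY2 at −0.06, TEF at 0.03 and HLF at −0.01. AANAT, which makes the precursor of melatonin, was at 0.60 but with an SE of 0.63, and its level was near 10.54 CPM without a lens. FBXL21, ARNTL2 and ASMT are named here, as are the phototransduction members after the first 4 by p, because their values had been seen.

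In phototransduction, most members past the unadjusted p were lower with a lens. PDE6C, CNGA3, GRK7 and CNGB3 of cones and PDE6B of rods were among them, while the cone transducin GNAT2 was not past it. Of 26 members tested, 0 passed the adjusted test and 12 were past the unadjusted p, as were 3.87% of all genes, 9 of the 12 lower and 3 higher, with a median of −0.13 over the list against −0.0014 over all genes. The median was −0.0864 without No Lens chick 82. With No Lens chicks of 1 day, of 3 days and of all days as controls it was −0.07, 0.08 and −0.07. Without chicks 13, 48 and 82, 10 were lower and 6 higher at that p, when 7.48% of all genes were past it. PDE6C, the catalytic subunit of the cone phosphodiesterase, stood at 527, 607 and 575 CPM without a lens, at 468, 435, 368 and 398 CPM with a negative and at 464, 438, 417 and 392 CPM with a positive lens. All 8 lens chicks lay below all 3 No Lens chicks. The difference was −0.44 ± 0.08 (SE, log2), and PDE6C fell by DESeq2 (adjusted p = 0.0033), by the likelihood ratio test and by limma-voom.

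CNGA3, the main subunit of the cone channel, stood at 144, 158 and 128 CPM without a lens, at 103.3, 100.4, 60.9 and 59.5 CPM with a negative and at 107, 98.6, 96.6 and 71.9 CPM with a positive lens. No lens chick reached the lowest No Lens chick, and the negative lens chicks fell into a higher and a lower pair. The difference was −0.72 ± 0.18 (SE, log2, adjusted p of the quasi-likelihood test = 0.858). DESeq2 did not call CNGA3 in the 11 chicks, and with the beta prior it did so without negative lens chick 49 (adjusted p = 0.00961), without chick 13 (0.0253), without chick 48 (0.0270), and without chicks 13, 48 and 82 together (0.00995). GRK7, the kinase of cone opsins, had the same form, with 210, 217 and 194 CPM against 162, 147, 98.0 and 82.5 CPM under the negative and 173, 129, 142 and 109 CPM under the positive lens, a difference of −0.68 ± 0.19 (SE). DESeq2 with the beta prior called GRK7 in the same 4 settings, with an adjusted p of 0.00394 without chicks 13, 48 and 82.

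Among the other lower members were the guanylate cyclase activators GUCA1A (−0.82 ± 0.26, SE) and GUCA1C (−0.58 ± 0.19), the rod phosphodiesterase subunit PDE6B (−0.55 ± 0.20) and the cone channel subunit CNGB3 (−0.25 ± 0.09). Also lower were RGS9 (−0.28 ± 0.12), of the complex that ends the transducin signal, and its anchor RGS9BP (−0.26 ± 0.10). In each of these 6, at least 1 lens chick reached the No Lens range. GUCA1C was called by DESeq2 with the beta prior without chicks 13, 48 and 82 (adjusted p = 0.0123). Cone arrestin, ARR3, was at −0.56 with an unadjusted p of 0.0520, from 949.6 to 645.7 CPM.

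The 3 higher members were CACNA2D4, an auxiliary subunit of the calcium channel at the photoreceptor synapse, SLC24A1, the sodium, calcium and potassium exchanger of rods, and CNGB1, a subunit of the rod channel. CACNA2D4 stood at 210, 216 and 230 CPM without a lens, at 299, 342, 360 and 360 CPM with a negative and at 259, 306, 322 and 426 CPM with a positive lens. Its groups were apart, and it rose by DESeq2 (adjusted p = 0.0067) at 0.61 ± 0.13 (SE in edgeR). SLC24A1 was at 0.42 ± 0.11 with no overlap, from a mean of 80.9 to 109 CPM, and CNGB1 at 0.65 ± 0.28 with overlap, since chicks 13 and 48 had 63.2 and 73.8 CPM and the other 6 lens chicks at least 103.5 CPM. Without chicks 13, 48 and 82, CNGB1 was called by DESeq2 with the beta prior (adjusted p = 0.00885).

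The transducins and some abundant transcripts gave smaller or less certain values. The rod transducin GNAT1 was at 0.39 ± 0.32 (SE), the cone transducin GNAT2 at 0.21 ± 0.21, the rod arrestin SAG at −0.19 ± 0.16 and the abundant PDE6H at −0.16 ± 0.09, and none of the 4 was past the unadjusted p. The summed level of the 11 photoreceptor markers found overlapped between the groups, at 9094 to 10115 CPM without a lens, 7866 to 10328 CPM with a negative and 7332 to 9897 CPM with a positive lens. The part of photoreceptor content in these values was not tested.

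**Figure D1:**
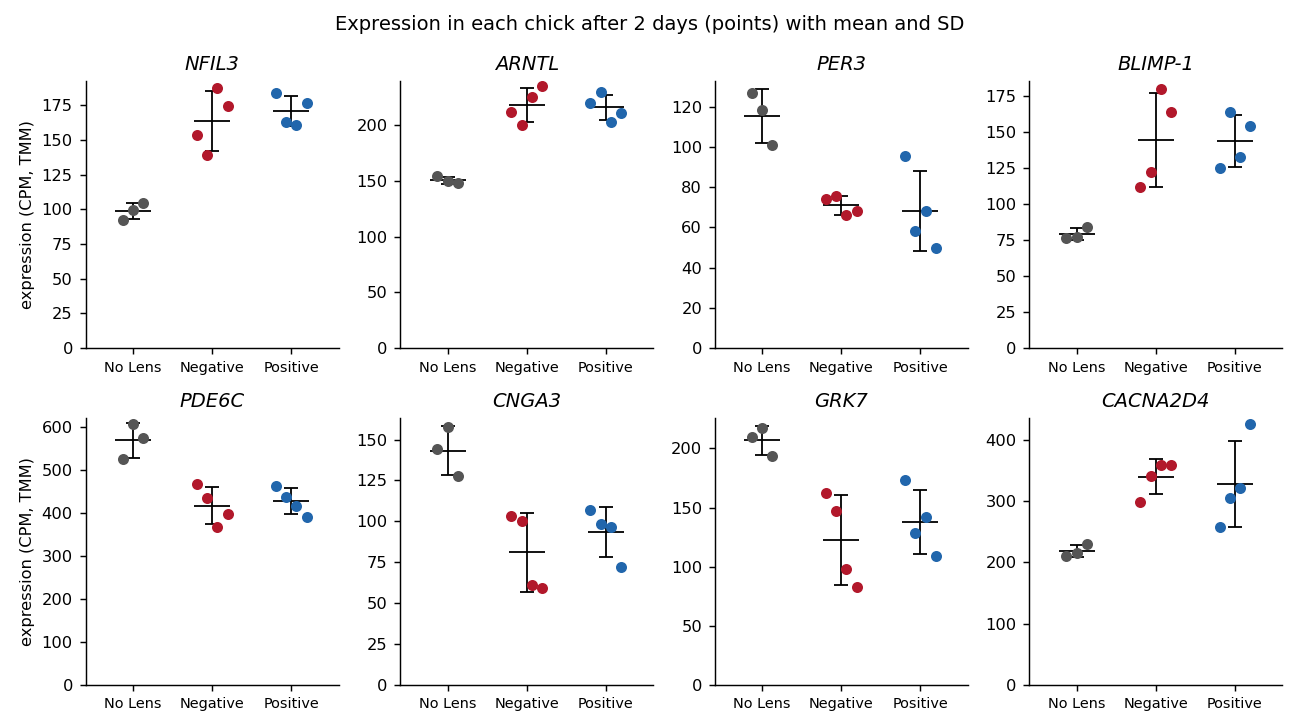
Expression after 2 days in CPM (vertical axes, from 0) of 8 clock and photoreceptor genes in each chick (points) by lens group, with the group mean (line) and SD (bars), for 3 No Lens, 4 negative and 4 positive lens chicks. In all 8 genes the lens chicks and the No Lens chicks do not overlap, as for ARNTL, where No Lens chicks lie between 148 and 154 CPM and lens chicks between 200 and 235 CPM. Over the whole clock list the lens chicks lay wholly above in 2 and wholly below in 1 of 18 members. In phototransduction they did so in 2 and 3 of 26, and over all 11410 genes in 51 (0.447%) and 70 (0.613%). The 8 genes shown are from those past the unadjusted p in these same chicks, which favours such separation.

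BLIMP-1 was the retinal regulator with the smallest p. It stood at 76.4, 77.4 and 83.99 CPM without a lens, at 112, 122, 180 and 164 CPM with a negative and at 125, 164, 133 and 155 CPM with a positive lens. All lens chicks were above all No Lens chicks, and within the negative group chicks 57 and 58 lay well above chicks 48 and 49. BLIMP-1 rose by DESeq2 (adjusted p = 0.000102) at 0.86 ± 0.15 (SE in edgeR), a ratio of 1.82. It was the single gene of 25 tested in the list of photoreceptor and retinal transcription factors that was past the unadjusted p (4.00% against 3.87% of all genes). ESRRB, an orphan nuclear receptor of mouse rods that was not in the list, was at 0.43 ± 0.10, and it rose by DESeq2 (adjusted p = 0.0267), a call lost without chicks 13, 48 and 82. PPEF2, a phosphatase of photoreceptors, was at 0.45 ± 0.09, and it rose by DESeq2 (adjusted p = 0.0172).

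OTUD1, which removes ubiquitin from proteins, stood at 84.9, 59.98 and 74.9 CPM without a lens, at 122, 145, 133 and 127 CPM with a negative and at 101.5, 92.9, 118 and 106 CPM with a positive lens. The 3 groups lay one above the other without overlap. OTUD1 rose by DESeq2 (adjusted p = 9.3e-05), and its difference of 0.67 ± 0.11 (SE) averages 0.83 with the negative and 0.51 with the positive lens. LAMP3, a lysosomal membrane protein that interferon induces in human cells, had 19.7, 22.4 and 20.7 CPM without a lens and between 28.3 and 50.6 CPM with one, a ratio of 1.97 (0.98 ± 0.18, SE), and it rose by DESeq2 (adjusted p = 0.00074). The other 24 tested genes of the interferon list were not past the unadjusted p.

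The other higher genes in order of p were the unnamed gene ENSGALG00000002638 (0.37), C2orf44 (0.50), LONRF3 (0.51), the ethanolamine kinase ETNK1 (0.67), the cholesterol exporter ABCG1 (0.41), the transcriptional coactivator CITED3 (0.24) and the cofactor LBH (0.43). DESeq2 called all 7 of them, with adjusted p-values from 0.00074 to 0.0484, and in LBH alone of these 7 the groups overlapped. LONRF3 alone of the 7 was called by DESeq2 with the beta prior without chicks 13, 48 and 82. LONRF3 measured 251, 188 and 227 CPM without a lens and from 272 to 355 CPM with one. ETNK1 measured 49.7, 41.5 and 46.7 CPM without and from 60.1 to 90.9 CPM with a lens. WDR17 (0.27 ± 0.07, SE; DESeq2 adjusted p = 0.0484) was the call of DESeq2 outside the 25, lost without chicks 13, 48 and 82, and is named for that reason.

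Several of the lower genes had a larger size with the negative lens, though none passed the adjusted quasi-likelihood test between the signs. CCBE1, a secreted protein needed for lymphatic vessel growth, had 62.4, 50.1 and 68.1 CPM without a lens, 41.7, 29.2, 31.2 and 28.6 CPM with a negative and 46.3, 40.5, 49.2 and 50.9 CPM with a positive lens. The negative lens chicks were clearly below the No Lens chicks, and 1 positive lens chick reached their range. CCBE1 fell by DESeq2 (adjusted p = 0.0135) at −0.63 ± 0.13 (SE in edgeR). The gene of carboxypeptidase M, an enzyme of the cell surface whose symbol is also CPM, had the largest size of the 25 at −1.08 ± 0.23 (SE). Its level in the unit CPM was 14.2, 13.2 and 10.1 without a lens, 5.24, 3.38, 5.27 and 4.76 with a negative and 5.63, 9.53, 6.29 and 9.24 with a positive lens, so that the groups were apart at a low level, and the likelihood ratio test called it (adjusted p = 0.0153) while DESeq2 did not.

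The membrane transporter SLC4A11 (−0.79 ± 0.20, SE), the potassium channel KCNH7 (−0.65 ± 0.17), RFTN2 (−0.52 ± 0.12), the ubiquitin ligase HERC3 (−0.34 ± 0.09) and the unnamed gene ENSGALG00000001604 (−0.47 ± 0.12) complete the lower genes, none of them called by DESeq2. RFTN2 had 25.1, 27.4 and 24.2 CPM without and between 15.4 and 19.96 CPM with a lens, with the groups apart. KCNH7 had 88.7, 84.03 and 68.1 CPM without a lens, 39.7 to 46.8 CPM with a negative and 42.3 to 81.1 CPM with a positive lens, so that positive lens chick 16 reached the No Lens range.

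Whether these differences depended on lens sign was tested directly between the 4 negative and the 4 positive lens chicks, which leaves the No Lens chicks out. In the 25 genes this contrast had no adjusted p below 0.879 by the quasi-likelihood test. Of the 25 intervals of the difference 20 held 0, which is not a larger share than over all genes, as the counts below show. For ARNTL the negative lens minus the positive lens difference was 0.0049 (95% interval −0.16 to 0.17), for NFIL3 −0.07 (−0.30 to 0.15), for BLIMP-1 −0.0043 (−0.35 to 0.34), for PER3 0.06 (−0.30 to 0.42) and for PDE6C −0.05 (−0.24 to 0.14). In 21 of the 25 genes the whole interval lay within the size of the shared difference itself. The genes were ranked on that shared difference in these same chicks, which favours a large value. This count is therefore a description, and it does not test whether the response is independent of sign. An unadjusted p below 0.05 between the signs was found in 317 of all 11410 genes and in 5 of the 25, a larger share. The 5 were OTUD1 (0.32), CCBE1 (−0.54), carboxypeptidase M (−0.75), SLC4A11 (−0.54) and KCNH7 (−0.44). In each of the 5 the negative lens chicks differed more from No Lens than the positive lens chicks did. Of these, limma-voom called CCBE1 between the signs (−0.67, adjusted p = 0.0419).

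Each lens on its own gave 0 calls by the quasi-likelihood test, with 568 genes at an unadjusted p below 0.05 for the negative and 286 for the positive lens, and DESeq2 called 19 and 6. Both comparisons use the same 3 No Lens chicks, so that a value common to both can come from those chicks alone. Side by side, the negative and the positive lens gave 0.72 and 0.79 for NFIL3, 0.52 and 0.52 for ARNTL, −0.71 and −0.77 for PER3, −0.46 and −0.41 for PDE6C, −0.83 and −0.62 for CNGA3, and 0.63 and 0.59 for CACNA2D4.

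**Figure D2:**
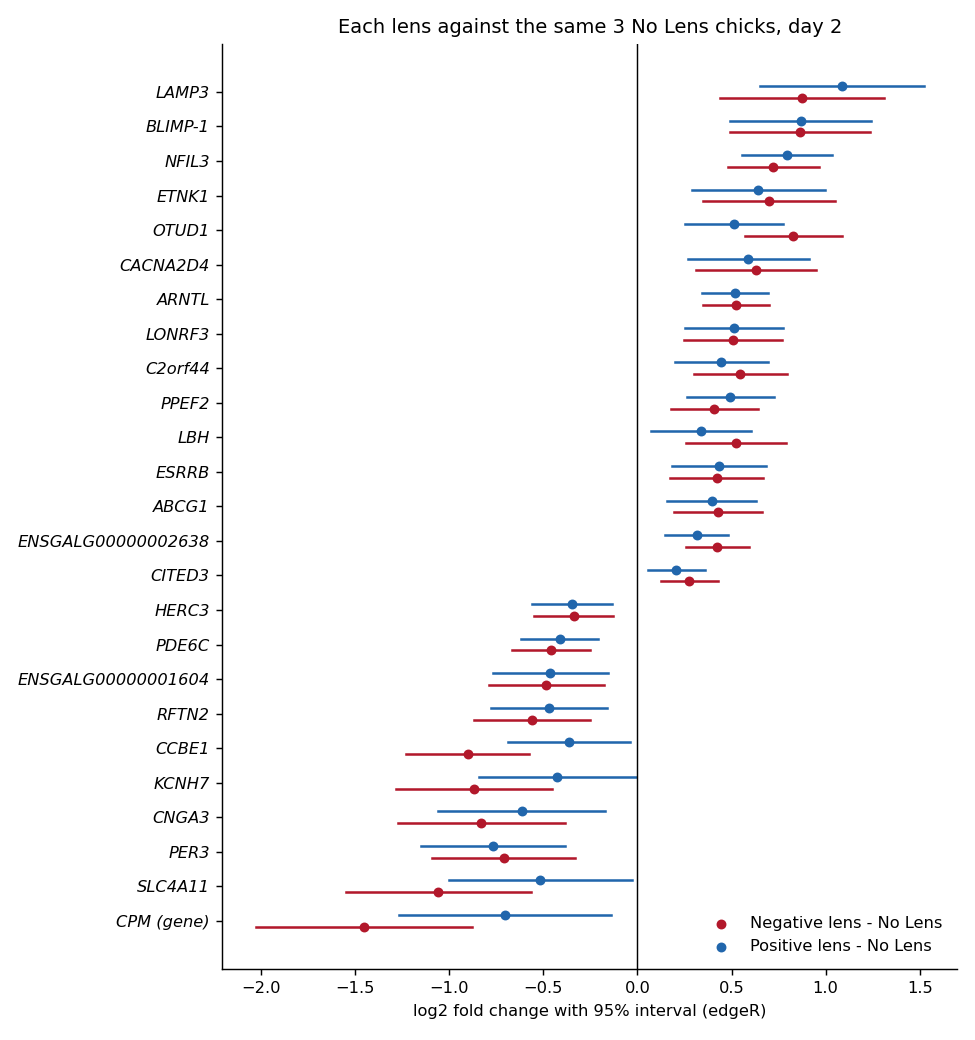
Log2 fold change of each lens against the same 3 No Lens chicks after 2 days (horizontal axis, points) with its 95% interval (lines) from edgeR, for the 25 genes with the smallest unadjusted p, negative lens in red and positive lens in blue. All 25 pairs lie on the same side of 0, which averaging both signs favours. The pair of ARNTL (0.52 and 0.52) is among the closest, and that of the gene CPM (−1.45 and −0.70) lies farthest apart.

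Lens sign was followed by a small number of genes. The quasi-likelihood test called 6 of 11410 genes (0.0526%) between negative and positive lens chicks, all lower under the negative lens and none of them among the 25. The 3 with the smallest p were PTX3, a long pentraxin of the hyaluronan matrix (−4.81), HAS2, which makes hyaluronan (−2.07), and ENSGALG00000001629 (−1.01). HAS2 stood at 7.35, 4.61 and 5.30 CPM without a lens, at 3.37 to 4.36 CPM with a negative and at 12.9 to 22.5 CPM with a positive lens, with No Lens between the signs. Their shared values were −0.06 ± 0.48 for PTX3, 0.43 ± 0.23 for HAS2 and 0.09 ± 0.11 for ENSGALG00000001629 (SE). The call count of 6 went to 0 without negative lens chick 57 and to 3 without negative lens chick 49 or positive lens chick 16.

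No member of the other gene lists passed the adjusted test. None of 20 immediate early genes, 32 heat shock proteins and co-chaperones or 25 citrate cycle genes was past the unadjusted p. Of 27 stress genes the 2 past it were OTUD1 and PER3 (7.41% against 3.87% of all genes). Of 24 neuropeptide, dopamine and acetylcholine genes 1 was past it (4.17%). This was NMU (neuromedin U), at −0.82 ± 0.34 (SE) and a mean of 3.98 CPM without a lens. Tyrosine hydroxylase (TH) at −0.34, VIP at −0.16 and PENK at −0.10 were not past the unadjusted p.

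Of 33 genes of BMP, TGF-beta and matricellular growth control, 2 were past the unadjusted p (6.06% against 3.87% of all genes), both lower. TGFB3 was at −0.29 ± 0.09 (SE), from 85.2 to 69.6 CPM with no overlap, and the matrix protein tenascin C, TNC, was at −0.62 ± 0.22, from 194.6 to 130.8 CPM, with −0.99 under the negative and −0.26 under the positive lens. The median of this list was −0.29 with a negative and 0.07 with a positive lens. CYP26A1, which breaks down retinoic acid, was at 0.54 ± 0.21 in the list of 18 retinoic acid genes. IMPG1, a proteoglycan of the matrix around photoreceptors, was at −0.35 ± 0.13 in that of 12 hyaluronan genes. LAMA3, a laminin chain, was at −0.55 ± 0.24 among 36 collagens and laminins. Each was the single member of its list past the unadjusted p (5.56%, 8.33% and 2.78% in this order).

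All 12 transcripts encoded in the mitochondrial genome were lower with a lens in value, as were 5762 of all 11410 genes. Their median was −0.22, and 3 of the 12 were past the unadjusted p, as were 3.87% of all genes. With chicks 13, 48 and 82 left out, 2 of the 12 were past it, when 7.48% of all genes were. The median of the 12 was 0.06 with the No Lens chicks of 1 day as controls. It was −0.31 with those of 3 days and −0.18 with those of all days. The 3 were MT-ND6 (−0.93 ± 0.28, SE), MT-CYB (−0.33 ± 0.12) and MT-CO1 (−0.27 ± 0.12). MT-CYB averaged 6186 CPM without and 4955 CPM with a lens, with no overlap between the groups. The median of the 12 was −0.31 with a negative and −0.14 with a positive lens, and these genes share 1 transcription unit per strand, so their values are not separate evidence. The 51 nuclear genes of the respiratory chain and ATP synthase held COX5A, NDUFC2 and NDUFA2 past the unadjusted p and higher (5.88% against 3.87% of all genes).

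Of 63 cytosolic ribosomal protein genes 1 was past the unadjusted p (1.59%), RPS23 at 0.32 ± 0.11 (SE). A positive value was found in 50 of the 63, against 49.5% of all genes, but the list median was only 0.05. It was 0.11 with a negative and 0.01 with a positive lens. With No Lens chicks of 1 day, of 3 days and of all days as controls the median was −0.06, 0.09 and 0.02. Of 87 splicing and RNA processing genes 4 were past it, all lower, namely PRPF38B (−0.35), HNRNPD (−0.26), HNRNPH3 (−0.21) and HNRNPA2B1 (−0.16), which at 4.60% is near the 3.87% of all genes.

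**Figure D3:**
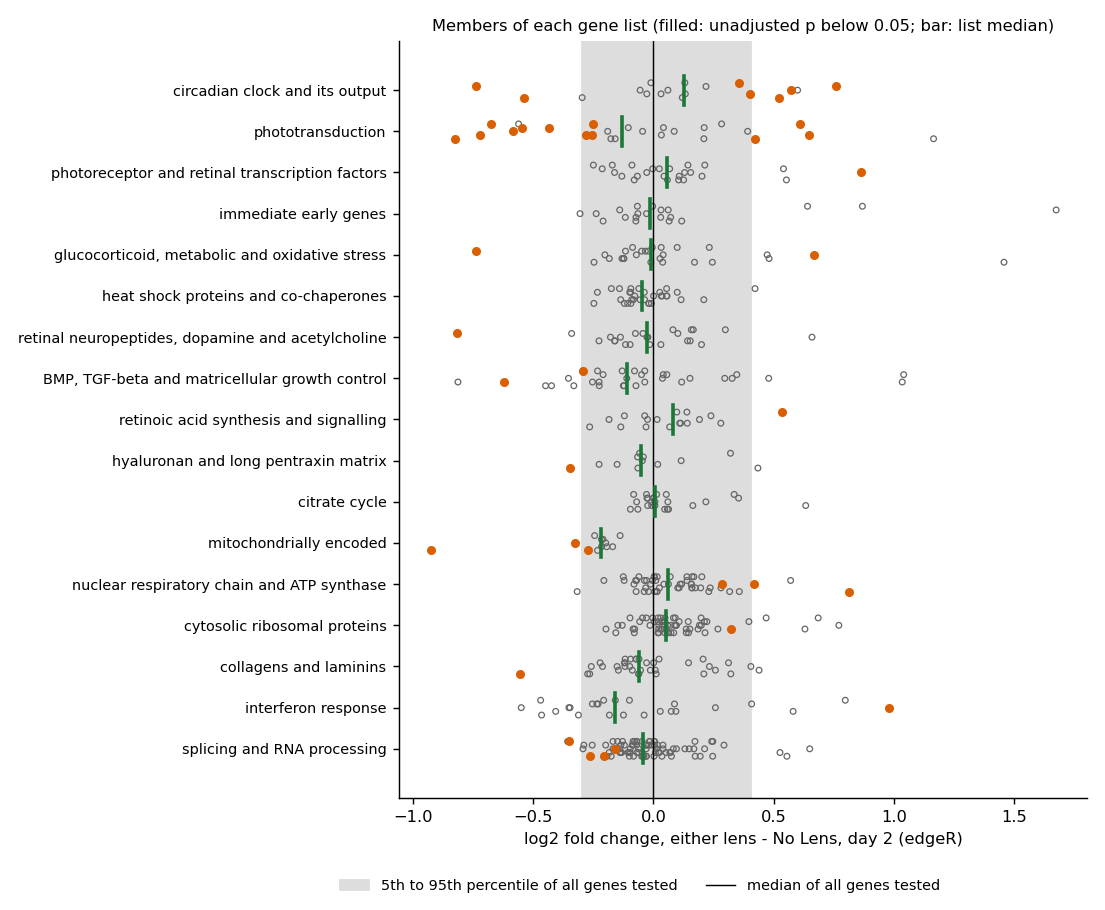
Log2 fold change of either lens against No Lens after 2 days (horizontal axis) for each tested member (points) of 17 gene lists, filled where the unadjusted p of edgeR was below 0.05, with the list median (green bar), the median of all genes tested (line) and their 5th to 95th percentile (grey band). Filled are 7 of 18 points in the clock list, 12 of 26 in phototransduction and 3 of the 12 mitochondrially encoded transcripts, all 12 of which lie left of 0, beside 3.87% of all genes past that p.

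Marker genes of vessels and blood were measured beside these results. Choroidal endothelium markers summed to 715 to 781 CPM without a lens, 599.8 to 668 CPM with a negative and 603 to 798 CPM with a positive lens, so only the negative lens chicks lay wholly below No Lens. Of 12 such markers 1 was past the unadjusted p (8.33% against 3.87% of all genes), VWF at −0.47 ± 0.18 (SE). Red blood cell and thrombocyte markers summed to 186 to 202 CPM without a lens, 203 to 341 CPM with a negative and 194 to 256 CPM with a positive lens, nearly all of it THBS1. The globin HBAD was low throughout, at a mean of 0.956 CPM without and 3.58 CPM with a lens, with no overlap. The part of blood or vessel content in the results was not tested.

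The same contrast was available in other chicks after 1 day (8 lens and 3 No Lens) and 3 days (8 and 4). Neither day gave a call by the quasi-likelihood test, with 395 genes (3.45%) at an unadjusted p below 0.05 on day 1 and 1881 (16.4%) on day 3, and DESeq2 called 5 and 397. The count column of No Lens chick 100, of the 3-day group, carries a suffix of unknown meaning, and without that chick the day 3 count was 0 as well. Without negative lens chick 69 the day 3 count of the quasi-likelihood test was 858 in place of 0. On day 1, 24 of the 25 genes had the direction of day 2, against 53.7% of all genes, and 7 of them had an unadjusted p below 0.05 in that direction. The exception was carboxypeptidase M at 0.03. The median size on day 1 was 0.22, compared with 0.52 on day 2. On day 3, 15 of the 25 had the direction of day 2, against 60.8% of all genes, with a median size of 0.12, and 1 of them, RFTN2, had an unadjusted p below 0.05.

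On day 1 the lens minus No Lens difference was 0.48 for NFIL3, 0.27 for ARNTL, 0.52 for BLIMP-1, 0.49 for LAMP3 and 0.38 for NPAS2, all past the unadjusted p in edgeR. PER3 was at −0.26 and PDE6C at −0.23, neither past it. The phototransduction genes GUCA1A (−0.55), PDE6B (−0.57), RGS9 (−0.24) and RGS9BP (−0.31) were also lower at the unadjusted p, and OTUD1 was at 0.06. On day 3 NFIL3 was at −0.02, ARNTL at −0.05, PDE6C at −0.0069, CNGA3 at −0.13 and PER3 at −0.23.

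The difference between days was tested in 1 fit of all 34 chicks. The quasi-likelihood test called 0 genes for day 2 minus day 1 (281 unadjusted) and 0 for day 2 minus day 3 (471 unadjusted, smallest adjusted p = 0.237). For day 2 minus day 3, DESeq2 called NFIL3 (0.80, adjusted p = 0.0122), ARNTL (0.60, adjusted p = 0.0445) and carboxypeptidase M (−1.47, adjusted p = 0.0190), and the likelihood ratio test called NFIL3 and carboxypeptidase M.

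Group means by day place these values beside the age of the controls. NFIL3 averaged 116, 98.9 and 179 CPM in the No Lens chicks of 1, 2 and 3 days, compared with 172, 164 and 175 CPM with a negative and 152, 171 and 172 CPM with a positive lens. ARNTL averaged 178, 151 and 239 CPM without a lens and stayed between 209 and 234 CPM in every lens group. PER3 averaged 84.6, 115 and 62.8 CPM without a lens and between 49.8 and 82.03 CPM in the lens groups. Without chick 100 the No Lens means of 3 days were 186 CPM for NFIL3, 253 CPM for ARNTL and 55.4 CPM for PER3.

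In all 15 higher genes the No Lens mean of day 2 was the lowest of the 3 No Lens days, and in all 10 lower genes it was the highest, compared with 29.8% and 25.3% of all genes tested. The genes were ranked on the day 2 No Lens chicks, so this is a description with no test. The ratio of the highest to the lowest day mean had a median of 1.48 in No Lens chicks and 1.14 in lens chicks over the 25 genes, and was larger in No Lens chicks in 22 of the 25 (68.04% of all genes, where No Lens groups also held fewer chicks). With the No Lens chicks of 3 days as controls in place of those of 2 days, 11 of the 25 genes kept their direction and their median size was 0.13. Without chick 100, a setting chosen after seeing the data, 9 kept it, at a median size of 0.22. With those of 1 day, 24 kept it, at a median size of 0.30, and with all 10 No Lens chicks all 25 kept it, at 0.24. Those 10 still include the 3 chicks of 2 days on which the genes were ranked. A lens effect and the state of these 3 No Lens chicks cannot be told apart on day 2 alone.

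**Figure D4:**
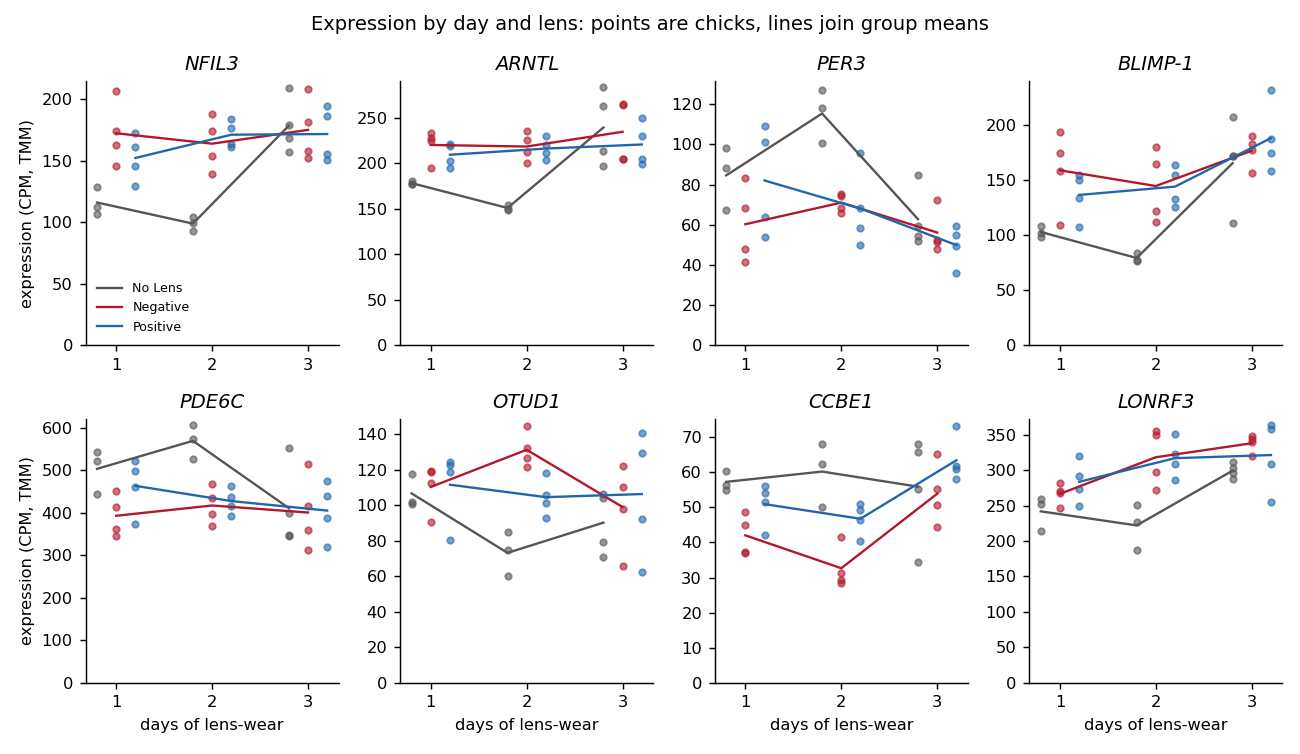
Expression in CPM (vertical axes, from 0) of 8 of the 25 genes after 1, 2 and 3 days in No Lens (grey), negative lens (red) and positive lens (blue) chicks, where points are chicks and lines join the group means of different chicks. In NFIL3 and ARNTL the No Lens means dip on day 2 (98.9 and 151 CPM) and reach the lens groups on day 3 (179 and 239 CPM), while the lens groups change less.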

How the data were processed

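Retina/RPE/choroid mRNA of 34 chicks was sequenced with a stranded kit as single-end reads. The authors trimmed reads (cutadapt, Trimmomatic), mapped them to galGal4 (TopHat2, Bowtie2), and with HTSeq counted reads mapping uniquely to each gene. They deposited the raw count of each of 13067 genes per chick, not normalized. Strand setting and annotation release are not given in the sources used here. Without a known strand setting, overlapping genes, and genes with near-identical copies, are uncertain. Groups came from the labels. Of the genes, 1426 had no symbol and are given by identifier.

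The 11 chicks of 2 days were fitted with a mean per lens group in R 4.3.3 with edgeR 4.0.16: filterByExpr (minimum count 10, minimum total 15), TMM, quasi-likelihood test of (negative + positive)/2 minus No Lens, Benjamini-Hochberg adjustment over all genes tested, and a call at an adjusted p below 0.05. Adjusted p-values are from this test unless another tool is named. The code was tested on simulated data. All pairs of chicks in a group differed by more than sampling noise, and the labels number no cultures or clutches, so p-values measure the spread between these chicks.

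Named genes are those called or, with fewer than 25 called, the first 25 by unadjusted p, up to 4 members of each list with the smallest p, and the first 3 for negative against positive lens. At most 2 unnamed identifiers in each direction are printed. The comparison, the lists and their members were chosen with earlier results of these data known. Lists by prefix (ribosomal, respiratory chain, collagens) had kinases, assembly factors and other non-members removed by symbol.

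Other settings tried were DESeq2 1.42.0 (default, and with its beta prior), the likelihood ratio test, limma-voom 3.58.1 with quality weights, RLE and upper quartile scaling, no filter, all 8 lens chicks as 1 group, all 34 chicks, 1 surrogate variable (sva 3.50.0), thinned counts, other control chicks and each chick left out. No promoter or protein sequence was used here.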

Additional observations from a re-analysis of the deposited data

Results flagged for a closer look

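In 118 groups of 4 chicks, 59 genes in the negative and the positive lens chicks of 2 days, 1 chick lay far from the others of its group in 7 cases. By chance about 1 in 20 such groups is picked out. ESRRB was at 201 CPM in negative lens chick 57 and at 177 to 179 CPM in the other 3. CITED3 was at 324 CPM in negative lens chick 48 and at 342 to 344 CPM in the others. CNGB1 was at 73.8 CPM in negative lens chick 48 and at 141 to 149 CPM in the others. HNRNPH3 was at 349.9 CPM in positive lens chick 13 and at 299.9 to 308 CPM in the others. WDR17 was at 487 CPM in positive lens chick 13 and at 430 to 438 CPM in the others. ENSGALG00000001629 was at 21.0 CPM in negative lens chick 58 and at 16.7 to 17.3 CPM in the others, and at 39.7 CPM in positive lens chick 16 and at 34.3 to 35.1 CPM in the others. Chicks 13 and 48, which take 4 of the 7 cases, also stood apart on the first principal component.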

How the results depend on the processing

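By DESeq2 the counts of called genes were 19 for either lens, 19 for the negative lens, 6 for the positive lens and 12 for negative against positive on day 2, 5 and 397 for either lens on days 1 and 3, and 3 for day 2 minus day 3. With the beta prior they were 19, 17, 9 and 12 on day 2. The likelihood ratio test of edgeR gave 12, 13, 7 and 15 on day 2, 1 and 415 on days 1 and 3, and 2 for day 2 minus day 3. Limma-voom gave 5 for either lens, 5 for the negative lens and 15 between the signs. With all 34 chicks in the fit the day 2 counts were 1, 2, 1 and 11, and with 1 surrogate variable they were 9, 7, 10 and 11. RLE scaling gave 2 for either lens on day 2 and 1 on day 3, all lens chicks as 1 group gave 2, and the No Lens chicks of all days as controls gave 1. Upper quartile scaling, no filter, thinned counts, and No Lens chicks of 1 or of 3 days gave 0 for either lens on day 2. With each chick left out in turn, the day 2 counts ran from 0 to 1 for either lens, from 0 to 1 for the positive lens, stayed at 0 for the negative lens and ran from 0 to 7 for negative against positive, and for DESeq2 with the beta prior from 5 to 29. They ran from 0 to 858 for day 3 and stayed at 0 for day 1. Leaving out the 3 chicks that stand apart, each chick under DESeq2, and chick 100 was chosen after seeing the data.

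Under every test and scaling of the 11 chicks, and with each left out, all 25 genes kept their direction. These fits reuse the chicks on which the genes were ranked, so that outcome was nearly fixed beforehand. Directions turned only with other control chicks. With No Lens chicks of 1 day the values were −0.00133 for LBH, 0.17 for NMU, 0.00496 for MT-CYB and 0.0173 for PRPF38B. With all No Lens chicks SLC24A1 was at −0.00931. With those of 3 days NFIL3 was at −0.0820, ARNTL at −0.13, BLIMP-1 at −0.18, LAMP3 at −0.38, C2orf44 at −0.000274, PPEF2 at −0.12, CACNA2D4 at −0.11, ABCG1 at −0.0313, ESRRB at −0.13, LBH at −0.22, NPAS2 at −0.32, SLC24A1 at −0.25, WDR17 at −0.0233, FBXL21 at −0.00690 and ARNTL2 at −0.19. In the same setting PDE6C was at 0.0484, PER3 at 0.15, CNGA3 at 0.17, ENSGALG00000001604 at 0.0422, IMPG1 at 0.17, GRK7 at 0.13, GUCA1A at 0.24, PDE6B at 0.26, RGS9BP at 0.0701 and RGS9 at 0.20. These controls differ in age, and the cause was not tested. No paired analysis was possible because the study used separate chicks as controls and took 1 eye of each chick. The labels also give no replicate numbers that groups share.

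The lowest total, 3078121 counts in No Lens chick 84, and 3 control chicks limit the precision: the median SE was 0.15 on the log2 scale, from 0.33 in the genes of lowest to 0.10 in those of highest expression.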
